A study of Mus musculus with 6 samples.

Results

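Of 45 genes listed for lysosomal hydrolases and membrane proteins, 44 were measured and 42 were bright enough to test. Of these 42, 39 were lower in mouse myoblasts grown on fibronectin than in myoblasts grown on collagen I, and 0 were higher. Among all 10942 genes tested 20.2% were lower and 19.9% higher. The list was drawn up by function, but with earlier results of these data known, so the list as a whole was not tested. It holds enzymes that break down sugars, sulfate esters, lipids, proteins and nucleic acids inside lysosomes, the activator proteins of some of these enzymes, and proteins of the lysosomal membrane. Cathepsins and the subunits of the proton pump are not on it. The 44 genes had 92 probe sets among the 45101 of the array, and they were 44 of the 18195 genes with a probe set assigned to 1 gene. Cd63, a tetraspan protein of late endosomes and lysosomes, was the listed gene without such a probe set in the annotation used here and was not analysed. The cells were hindlimb muscle myoblasts of C57BL/6JRj males aged 9 to 15 weeks, and they were kept for 72 hours either on fibronectin (3 samples) or on collagen I (3 samples). Both groups received the same Ham's F-10 medium with 20% fetal bovine serum and basic fibroblast growth factor at 2.5 ng/ml. Total RNA was hybridised to an Affymetrix mouse array, and the question addressed by the comparison was how the coating of the dish altered gene expression. The labels do not say how the myoblasts were purified, or whether the samples of a coating came from separate animals or cultures, so each p-value rests on a spread between samples that may be only technical.

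Lysosomes are acidic organelles in which macromolecules delivered by endocytosis and autophagy are taken apart. Soluble hydrolases are made in the endoplasmic reticulum, are marked with mannose phosphate in the Golgi and are carried to lysosomes by mannose phosphate receptors, whereas membrane proteins reach lysosomes through sorting signals in their tails. Products of digestion leave through transporters of the lysosomal membrane. For many of the hydrolases, activators and transporters, loss of a single one causes a storage disease. Many of these genes carry an E-box element in their promoters that is bound by the MiT/TFE transcription factors. In muscle, lysosomal breakdown serves protein turnover and the remodelling of differentiating cells, and loss of the acid glucosidase Gaa leads to glycogen storage in muscle fibres.

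The samples of a coating resembled each other more than those of the other coating, with Pearson correlations (over all probe sets except controls) from 0.997 to 0.998 for samples of the same coating and from 0.994 to 0.995 for samples of different coatings. Such correlations are across probe sets, which are not independent replicates. The median signal of a sample lay between 2.30 and 2.34 on fibronectin and between 2.35 and 2.39 on collagen (log2). Markers of myoblasts were bright, with 8 of 9 at or above the brightness filter of 2.33 and a mean over the 9 between 7.64 and 7.74 on fibronectin and between 7.69 and 7.73 on collagen. Single myoblast markers moved both ways by limma at an adjusted p under 0.05. Chrna1 and Des fell (log2 changes -0.31 and -0.23), Vcam1 and Cdh15 rose (0.31 and 0.24), and 4 did not pass. At this threshold 20.2% of all genes tested fell and 19.9% rose. The 6 endothelial markers all lay below the filter, and so did 7 of 9 fibroblast markers and 14 of 16 macrophage markers. The 2 bright fibroblast markers went opposite ways by limma. Col3a1, with a mean signal of 9.43, rose on fibronectin (log2 change 0.21, adjusted p = 0.0163). Thy1, with a mean signal of 2.55, fell (log2 change -0.32, adjusted p = 0.0399). Markers of differentiating muscle moved with the coating: 9 of 12 were bright and all 9 fell on fibronectin, against 20.2% of all genes tested. The sum of the 12 log2 signals lay between 46.2 and 49.8 on fibronectin and between 57.5 and 58.5 on collagen. The part of differentiating cells in the results below was not tested, and in such bulk samples fewer cells of a type and less RNA per cell cannot be told apart.

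Lysosomal genes were lower on fibronectin almost throughout the list. Of the 42 tested genes 39 fell by limma at an adjusted p under 0.05, against 20.2% of the 10942 genes tested on the array, and 0 rose, against 19.9% (40.1% passed in either direction). The other 3, Fuca1, Smpd1 and Ppt2, had negative changes that did not pass. The median log2 change (fibronectin minus collagen) over the 42 genes was -0.38, and the quartiles were -0.67 and -0.28, whereas the median over all genes tested was 0.00. In 41 of the 42 genes (97.6%) all 3 fibronectin samples lay below all 3 collagen samples, against 25.9% of all genes tested. Ppt2 was the exception, and no tested gene of the list had its lowest signal in a collagen sample. Most of the falls were moderate: 3 genes, Cd68, Dpp7 and Hgsnat, fell at least 2-fold, 10 fell between 1.5-fold and 2-fold, and 26 fell by less than 1.5-fold. The 13 genes that fell at least 1.5-fold made up 13 of 42, where 3.67% of all genes tested did so. The 5% of all genes tested with the most negative changes, at -0.50 or below, included 15 of the 42, and the 10% at -0.33 or below included 23. With samples centred on their medians 36 of the 42 fell, against 15% of all genes tested. The share of higher genes among all genes called was then 64.3% in place of 49.6%. In this setting all 3 fibronectin samples lay below all 3 collagen samples in 36 of the 42 genes, in place of 41.

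**Figure D1:**
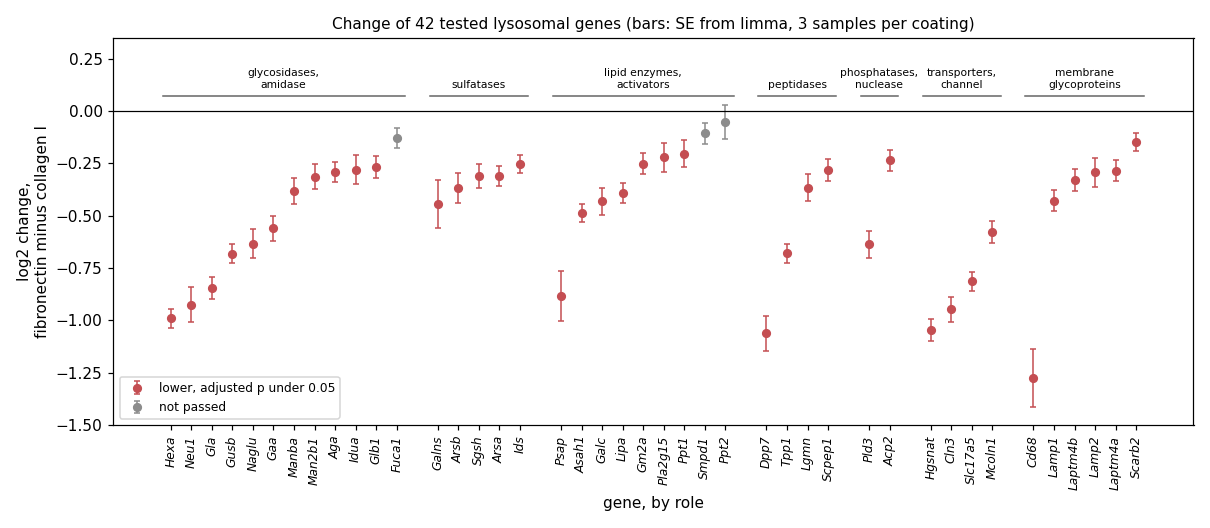
Log2 change (fibronectin minus collagen I) of the 42 tested lysosomal genes on the vertical axis, grouped by role along the horizontal axis. Points are limma estimates from 3 samples per coating and bars are standard errors. Every point lies below 0, and the 3 grey points are Fuca1, Smpd1 and Ppt2.

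Falls were found at every brightness. When all genes tested were divided by mean signal into 3 equal bands, the list had 8 genes in the dimmest band, 16 in the middle and 18 in the brightest, of which 8, 13 and 18 fell. Among all genes of these bands 21%, 20.6% and 19% fell. The median log2 change of the listed genes was -0.54 in the dimmest band, -0.37 in the middle and -0.38 in the brightest. The mean over the 42 genes was 6.34, 6.38 and 6.36 in the fibronectin samples, against 6.87, 6.84 and 6.83 in the collagen samples. The corresponding mean over all genes tested was 5.93, 5.94 and 5.93 in the fibronectin samples, against 5.96, 5.95 and 5.95 in the collagen samples. In both means the coatings did not overlap, and the gap was wider for the lysosomal genes.

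**Figure D2:**
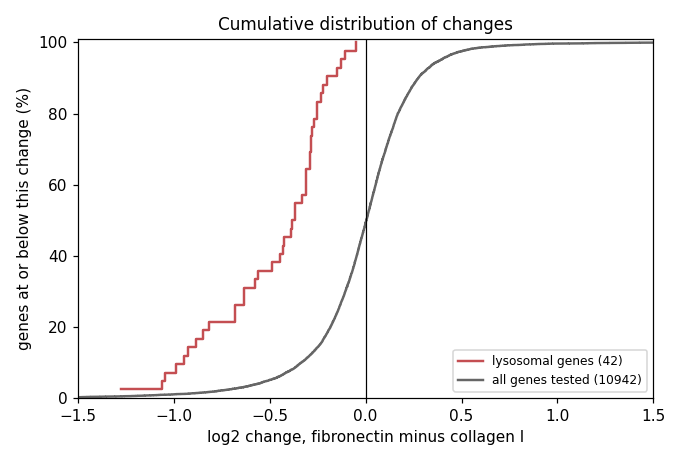
Cumulative share of genes (vertical axis, percent) at or below a given log2 change, fibronectin minus collagen I (horizontal axis), for the 42 tested lysosomal genes and for all 10942 genes tested. The axis is limited to changes of at most 1.5 in size. The curve of the lysosomal genes reaches 100% before 0, while that of all genes crosses 0 near its middle.

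Promoter sequence is shown for 6 genes of the list, because the members moved together and the element of the MiT/TFE factors has a known spelling. RefSeq windows of 300 bases (250 before and 50 after an annotated start, assembly GRCm38.p6) were given for 40 of the 45 listed genes, and 3 nested palindromes were searched in them, CACGTG, TCACGTGA, and TCACGTGA preceded by G and followed by C, each of which reads the same on both strands, the longer spellings containing the shorter. CACGTG was found in windows of 11 of the 40 genes (27.5%), against 8.91% of the 17492 protein-coding genes of the table. TCACGTGA was found in 4 (10%), namely Cln3, Dpp7, Gla and Mcoln1, against 1.41%, and the form flanked by G and C in Cln3 (2.5%), against 0.469%. A gene with several windows was counted if any of them held the letters. The other 7 genes with CACGTG were Arsa, Gaa, Glb1, Lamp1, Lgmn, Naglu and Sgsh. All 11 genes with CACGTG fell on fibronectin, with a median log2 change of -0.56, and of 26 tested genes with windows that lacked it 23 fell, with a median of -0.30. A match is a description of the letters in a window and does not show that a factor binds there. Capitals mark the longest of the 3 palindromes at each place, and each sequence runs 5′ to 3′ along the strand of its gene. Cln3 (chr7:126583187-126583486, minus strand) held the longest form from -123 to -114 before its start and a further CACGTG from -149 to -144. Gla (chrX:134600956-134601255, minus strand) held TCACGTGA at -228 to -221 and again at -195 to -188. Dpp7 (chr2:25356283-25356582, minus strand) held it at -74 to -67. Mcoln1 (chr8:3500269-3500568, plus strand) held TCACGTGA at -46 to -39 and CACGTG at -71 to -66. Lamp1 (chr8:13158911-13159210, plus strand) is shown for its 4 copies of CACGTG between -61 and -10. Hexa (chr9:59539290-59539589, plus strand), which fell by about as much as Cln3, is shown as a window without any of the 3.
Cln3: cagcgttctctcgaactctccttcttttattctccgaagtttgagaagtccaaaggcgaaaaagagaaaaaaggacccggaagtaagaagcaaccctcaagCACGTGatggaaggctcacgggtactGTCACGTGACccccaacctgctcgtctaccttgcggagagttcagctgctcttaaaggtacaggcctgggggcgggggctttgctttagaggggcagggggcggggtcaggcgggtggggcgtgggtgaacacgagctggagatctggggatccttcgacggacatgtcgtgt
Gla: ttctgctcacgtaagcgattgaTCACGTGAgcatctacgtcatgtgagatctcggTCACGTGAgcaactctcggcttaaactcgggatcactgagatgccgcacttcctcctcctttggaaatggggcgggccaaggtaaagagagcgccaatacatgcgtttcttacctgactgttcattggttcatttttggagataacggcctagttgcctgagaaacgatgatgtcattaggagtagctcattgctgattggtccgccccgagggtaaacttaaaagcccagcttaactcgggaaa
Dpp7: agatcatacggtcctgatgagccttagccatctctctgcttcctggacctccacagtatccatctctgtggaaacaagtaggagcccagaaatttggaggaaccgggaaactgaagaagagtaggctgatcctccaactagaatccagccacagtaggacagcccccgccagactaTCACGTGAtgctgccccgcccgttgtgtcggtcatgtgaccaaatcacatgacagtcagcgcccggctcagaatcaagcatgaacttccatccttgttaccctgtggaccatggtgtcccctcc
Mcoln1: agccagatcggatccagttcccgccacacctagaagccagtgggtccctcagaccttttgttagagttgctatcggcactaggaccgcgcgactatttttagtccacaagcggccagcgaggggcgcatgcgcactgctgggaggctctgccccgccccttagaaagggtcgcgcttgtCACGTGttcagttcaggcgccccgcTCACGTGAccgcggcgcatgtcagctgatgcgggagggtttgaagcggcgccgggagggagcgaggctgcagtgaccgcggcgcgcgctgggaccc
Lamp1: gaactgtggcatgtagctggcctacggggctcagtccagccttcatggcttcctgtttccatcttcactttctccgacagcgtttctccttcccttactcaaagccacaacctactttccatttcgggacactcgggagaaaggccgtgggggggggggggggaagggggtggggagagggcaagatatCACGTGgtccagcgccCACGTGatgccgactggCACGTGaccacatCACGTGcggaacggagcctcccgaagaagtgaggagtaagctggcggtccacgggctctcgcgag
Hexa: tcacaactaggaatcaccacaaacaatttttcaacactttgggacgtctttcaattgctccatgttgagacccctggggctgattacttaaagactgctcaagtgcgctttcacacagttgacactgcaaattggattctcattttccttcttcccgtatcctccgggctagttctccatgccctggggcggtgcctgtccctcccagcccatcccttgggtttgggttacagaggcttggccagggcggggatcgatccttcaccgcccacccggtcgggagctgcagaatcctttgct

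Glycosidases cut sugars from the ends of chains on glycoproteins, glycolipids and glycosaminoglycans. They fell in 11 of 12 cases, against 20.2% of all genes tested. Hexa (Entrez gene 15211), the alpha subunit of the beta-hexosaminidase that degrades gangliosides, had log2 signals of 7.56, 7.60 and 7.52 on fibronectin, against 8.55, 8.58 and 8.52 on collagen. That was a 1.99-fold fall (log2 SE 0.045), and its adjusted p of 1.27e-05 was the smallest of the list. The samples of a coating differed by less than 0.1, so the gap between coatings was far larger than the spread within either. Gla (Entrez gene 11605), the alpha-galactosidase that is lost in Fabry disease, had 5.35, 5.50 and 5.39 on fibronectin, against 6.28, 6.26 and 6.24 on collagen, and fell 1.8-fold (adjusted p = 3.06e-05). Gusb, a beta-glucuronidase, had 7.98, 8.09 and 8.07 on fibronectin, against 8.71, 8.73 and 8.74 on collagen, and fell 1.6-fold (adjusted p = 5.51e-05). Neu1, the sialidase that removes terminal sialic acids, was dim, with 3.23, 3.51 and 3.22 on fibronectin, against 4.29, 4.16 and 4.28 on collagen. Its second fibronectin sample was the highest of that coating and still lay below every collagen sample, and the fall was 1.9-fold (adjusted p = 0.000176). The remaining falls were those of Naglu, an alpha-N-acetylglucosaminidase (1.55-fold), Gaa, the acid alpha-glucosidase that digests glycogen (1.48-fold), the beta-mannosidase Manba (1.31-fold), the alpha-mannosidase Man2b1 (1.24-fold), Aga, an amidase that frees sugar chains from asparagine (1.22-fold), the iduronidase Idua (1.21-fold) and the beta-galactosidase Glb1 (1.2-fold), with adjusted p between 0.000348 and 0.0132. Over the averaged probe sets of Idua the log2 change was -0.14 in place of -0.28 and did not pass (adjusted p = 0.0907), and that of Gla was -0.55 in place of -0.85. The alpha-fucosidase Fuca1 had 6.49, 6.47 and 6.58 on fibronectin, against 6.69, 6.63 and 6.60 on collagen. These samples did not overlap, but the log2 change of -0.13 did not pass (adjusted p = 0.071).

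All 5 sulfatases fell on the brightest probe set of each gene, each by less than 1.5-fold, where 20.2% of all genes tested fell. The calls of Ids and Arsb were lost over averaged probe sets. Sulfatases remove sulfate from glycosaminoglycans and sulfolipids and depend on a formylglycine made by Sumf1. Arsa, which acts on sulfatide, had 5.41, 5.43 and 5.47 on fibronectin, against 5.80, 5.75 and 5.69 on collagen, a 1.24-fold fall (adjusted p = 0.00176). Ids, the iduronate sulfatase, had 7.28, 7.33 and 7.37 on fibronectin, against 7.58, 7.57 and 7.59 on collagen, and fell 1.19-fold (adjusted p = 0.00292). For Ids 1 of 3 bright probe sets passed, and the mean over all its probe sets had a log2 change of -0.08 that did not pass (adjusted p = 0.269). On the brightest probe set of both genes every fibronectin sample lay below every collagen sample, as in 25.9% of all genes tested. Sgsh, the sulfamidase of heparan sulfate, had 2.78, 2.77 and 2.84 on fibronectin, against 3.20, 3.12 and 3.01 on collagen, which is close to the brightness filter, and fell 1.24-fold (adjusted p = 0.00406), with a log2 change of -0.31 that was -0.18 over its averaged probe sets. Arsb, which acts on dermatan sulfate, had 6.52, 6.56 and 6.51 on fibronectin, against 6.74, 6.93 and 7.03 on collagen, and fell 1.29-fold (adjusted p = 0.00553). Over the averaged probe sets of Arsb the log2 change was -0.20 in place of -0.37 and did not pass (adjusted p = 0.0673). On its brightest probe set the collagen samples were spread more widely than the fibronectin samples. Galns, which acts on keratan sulfate, had the largest estimate of the 5, at 1.36-fold, and the largest SE (0.11 on the log2 scale, adjusted p = 0.0172). Its call was lost without fibronectin replicate 2 (log2 change -0.40, adjusted p = 0.0536) and without fibronectin replicate 3 (-0.40, adjusted p = 0.0584).

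Enzymes and activators of lipid breakdown fell in 7 of 9 cases, against 20.2% of all genes tested. They held the 2 smallest changes of the list. Asah1, the acid ceramidase, had 8.54, 8.57 and 8.51 on fibronectin, against 9.03, 9.06 and 8.99 on collagen, and fell 1.4-fold (adjusted p = 0.000169). Lipa, the acid lipase that splits cholesteryl esters and triglycerides, had 6.18, 6.21 and 6.16 on fibronectin, against 6.61, 6.50 and 6.62 on collagen, and fell 1.31-fold (adjusted p = 0.000672). Both genes had samples within about 0.1 of each other on each coating. Psap, the precursor of the saposins that activate sphingolipid hydrolases, had 8.80, 8.36 and 8.85 on fibronectin, against 9.53, 9.53 and 9.59 on collagen. It fell 1.84-fold (adjusted p = 0.000968), and its second fibronectin sample was lower than the other 2 by more than 0.4. Galc, the galactosylceramidase, had 5.63, 5.86 and 5.67 on fibronectin, against 6.12, 6.15 and 6.18 on collagen, and fell 1.35-fold (adjusted p = 0.0016), with a log2 change of -0.43 that was -0.29 over its averaged probe sets. Smaller falls were found for Gm2a, an activator that presents gangliosides to hexosaminidase (1.19-fold), the phospholipase Pla2g15 (1.17-fold) and Ppt1, a thioesterase that removes palmitate from proteins (1.15-fold), with adjusted p of 0.00615, 0.0336 and 0.0389. The call of Pla2g15 was lost without any 1 of fibronectin replicates 1, 2 or 3 or of collagen replicates 2 or 3 (adjusted p between 0.0512 and 0.105) and with samples centred (0.0975), and that of Ppt1 without any 1 sample other than collagen replicate 3 (adjusted p between 0.0571 and 0.116). The acid sphingomyelinase Smpd1 had a log2 change of -0.11 (adjusted p = 0.131) and the thioesterase Ppt2 one of -0.05 (SE 0.08, adjusted p = 0.635), and neither passed. The change of Ppt2 was 0.00 with samples centred on their medians, 0.00 without fibronectin replicate 2 and 0.01 without collagen replicate 1.

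The 4 peptidases all fell, against 20.2% of all genes tested. Dpp7 (Entrez gene 83768), a dipeptidyl peptidase, had 4.59, 4.78 and 4.71 on fibronectin, against 5.60, 5.74 and 5.91 on collagen, and fell 2.09-fold (log2 SE 0.084, adjusted p = 9.92e-05). Tpp1, the tripeptidyl peptidase lost in a childhood form of Batten disease, had 8.09, 8.14 and 8.07 on fibronectin, against 8.77, 8.82 and 8.76 on collagen, and fell 1.6-fold (adjusted p = 4.56e-05). In both genes the gap between coatings was larger than the spread within either. Lgmn, an asparaginyl endopeptidase that also processes cathepsins, had 5.86, 5.96 and 5.81 on fibronectin, against 6.14, 6.29 and 6.30 on collagen, and fell 1.29-fold (adjusted p = 0.00313). Scpep1, a serine carboxypeptidase, had 7.30, 7.36 and 7.40 on fibronectin, against 7.69, 7.64 and 7.57 on collagen, and fell 1.22-fold (adjusted p = 0.00407), a call that was lost over its averaged probe sets (log2 change -0.19, adjusted p = 0.0637). Pld3, a membrane-bound exonuclease of single-stranded nucleic acids, had 7.04, 7.22 and 7.10 on fibronectin, against 7.86, 7.71 and 7.71 on collagen, a 1.55-fold fall (adjusted p = 0.000267). Acp2, the lysosomal acid phosphatase, had 5.24, 5.32 and 5.31 on fibronectin, against 5.57, 5.55 and 5.45 on collagen, a 1.18-fold fall (adjusted p = 0.00793). Acp5, the tartrate-resistant acid phosphatase known from osteoclasts and macrophages, lay below the filter in every sample, at 1.14, 0.88 and 1.20 on fibronectin, against 0.90, 1.11 and 0.90 on collagen, and was not tested.

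Transporters, a channel and a transferase of the lysosomal membrane fell in all 4 tested cases, against 20.2% of all genes tested. Their median was the largest of the 7 roles, a log2 change of -0.88. Hgsnat (Entrez gene 52120), which carries acetyl groups across the membrane onto heparan sulfate, had 6.86, 6.90 and 6.95 on fibronectin, against 7.89, 7.92 and 8.03 on collagen, and fell 2.06-fold (log2 SE 0.052, adjusted p = 1.68e-05). Slc17a5, which exports sialic acid, had 5.17, 5.20 and 5.20 on fibronectin, against 5.96, 6.02 and 6.04 on collagen, and fell 1.76-fold (adjusted p = 2.04e-05). Within each coating the samples of both genes agreed to about 0.1. Cln3, the membrane protein lost in juvenile Batten disease, had 3.81, 3.64 and 3.82 on fibronectin, against 4.74, 4.70 and 4.66 on collagen, and fell 1.93-fold (adjusted p = 3.81e-05), with a log2 change of -0.95 that was -0.53 over its averaged probe sets. Mcoln1, the calcium-permeable cation channel of lysosomes, had 5.60, 5.68 and 5.75 on fibronectin, against 6.21, 6.26 and 6.29 on collagen, and fell 1.49-fold (adjusted p = 0.000185). Cln3 and Mcoln1 are, with Gla and Dpp7, the genes whose windows above held the longer E-box spellings. Ctns, which exports cystine, had a mean signal just under the filter and was not tested, with 2.07, 1.98 and 2.08 on fibronectin, against 2.52, 2.80 and 2.53 on collagen. Its samples did not overlap, and without the brightness filter its log2 change of -0.57 had an adjusted p of 0.00509.

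Glycoproteins and tetraspan proteins of the membrane fell in all 6 tested cases, against 20.2% of all genes tested. Cd68 (Entrez gene 12514), a heavily glycosylated membrane protein abundant in macrophages, had the largest change of the list, with 3.12, 3.64 and 3.31 on fibronectin, against 4.77, 4.43 and 4.69 on collagen. It fell 2.42-fold (log2 SE 0.14, adjusted p = 0.000358). Cd68 had 1 probe set, which was dim, with a mean signal of 3.99. Among the 16 macrophage markers only Cd14, which also fell (1.37-fold, adjusted p = 0.000768), and Csf1r (log2 change -0.03, not passed) lay at or above the filter, Ptprc, Adgre1 and Itgam lay below it, and the sum of the 16 log2 signals was between 21.4 and 22.3 on fibronectin and between 22.5 and 23.3 on collagen. The part of macrophages in the change of Cd68 was not tested. Lamp1, a main glycoprotein of the lysosomal membrane, was bright, with 9.79, 9.78 and 9.73 on fibronectin, against 10.26, 10.21 and 10.12 on collagen, and fell 1.35-fold (adjusted p = 0.000508). Laptm4b had 8.98, 8.98 and 8.94 on fibronectin, against 9.34, 9.35 and 9.20 on collagen, and fell 1.26-fold (adjusted p = 0.00197). Its paralogue Laptm4a had 10.34, 10.28 and 10.33 on fibronectin, against 10.65, 10.64 and 10.53 on collagen, and fell 1.22-fold (adjusted p = 0.00331). Both encode small membrane-spanning proteins of late endosomes and lysosomes. In both genes all fibronectin samples lay below all collagen samples, as in 25.9% of all genes tested. Lamp2, which takes part in autophagy, fell 1.22-fold (adjusted p = 0.0124, log2 change -0.29, and -0.60 over its averaged probe sets), and Scarb2, a membrane glycoprotein that also acts as a sorting receptor, fell 1.11-fold (adjusted p = 0.0294). The call of Scarb2 was lost without any 1 of fibronectin replicates 1 or 3 or collagen replicates 2 or 3 (adjusted p between 0.0739 and 0.0969), with the replicate number as a block (0.0541) and with samples centred on their medians (0.169), and Ppt1 was lost under the last 2 settings too (0.0616 and 0.096).

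**Figure D3:**
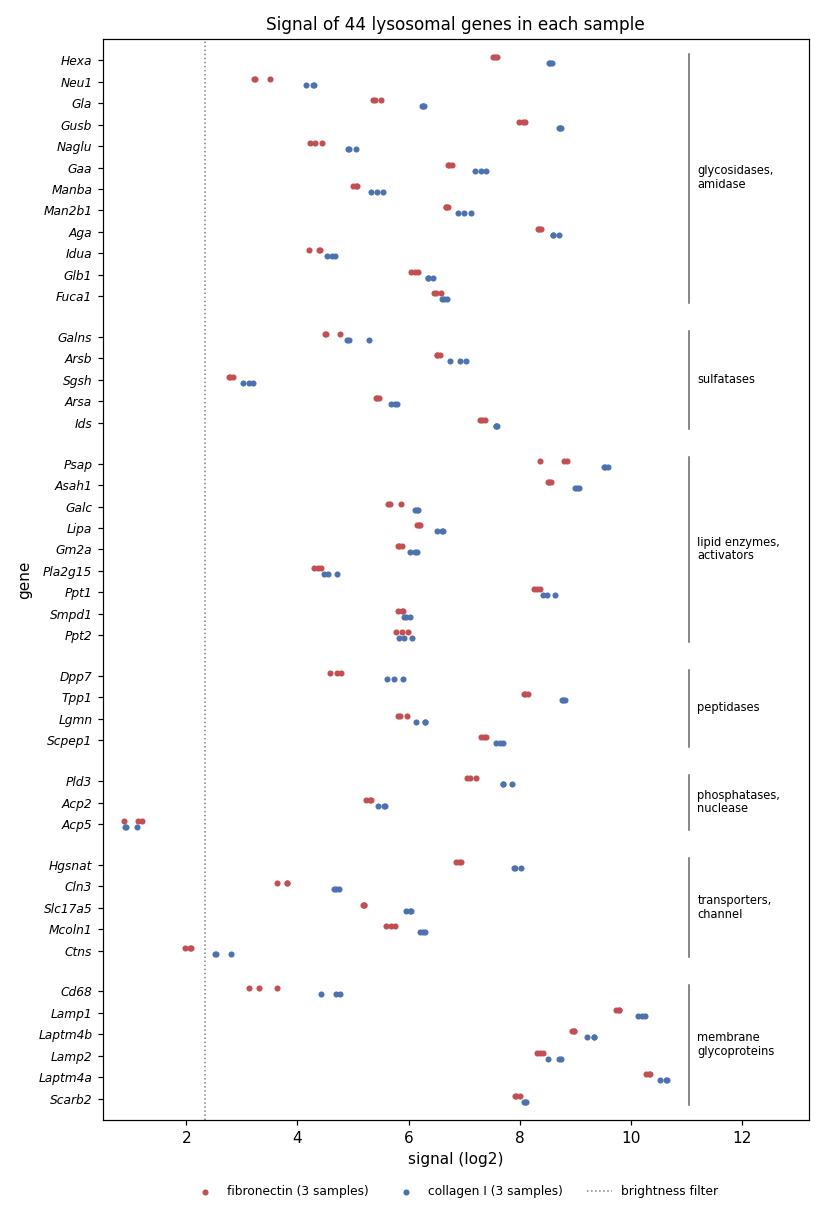
Log2 signal (horizontal axis) of the 44 measured lysosomal genes (rows, grouped by role) in each of the 3 fibronectin and 3 collagen I samples. The dotted line is the brightness filter of 2.33. In every row above the filter except Ppt2 the fibronectin points lie left of the collagen points. Levels of different probe sets are not comparable with each other.

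Seen by substrate, falls were found in each of the breakdown routes grouped here, against 20.2% of all genes tested that fell. This grouping was made after the values were seen, and a gene can serve several routes. Of the enzymes that act on heparan sulfate, Ids, Idua, Sgsh, Hgsnat, Naglu and Gusb, all 6 fell, with a median log2 change of -0.47 and a range from -1.05 for Hgsnat to -0.25 for Ids. All 5 genes of dermatan sulfate breakdown (Ids, Idua, Arsb, Gusb and Hexa) and all 3 of keratan sulfate breakdown (Galns, Glb1 and Hexa) fell, with medians of -0.37 and -0.44. These counts rest on the brightest probe set of each gene. The calls of Ids, Idua and Arsb were lost over averaged probe sets, and that of Galns without fibronectin replicate 2 or 3. Of 10 genes for sphingolipids 9 fell, Smpd1 being the other, and the median was -0.46. Of 7 genes for sugar chains of glycoproteins 6 fell, Fuca1 being the other, and the median was -0.31.

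Genes with more than 1 probe set allowed the result to be read on separate probes of the same arrays. At or above the filter the list had 70 probe sets, of which 57 were lower, 0 were higher and 13 did not pass when p-values were adjusted over the 22551 probe sets at or above the filter. Over all of these, 15.7% were lower and 16.2% higher. In 19 genes at least 2 probe sets were bright, in 17 of them all bright probe sets had negative changes, and in 12 all bright probe sets were lower. The probe sets of Lamp2 differed in size: its 4 bright probe sets had log2 changes of -0.29, -0.28, -1.06 and -0.77, all past the threshold. Lamp2 is made as splice forms that differ in their tails, and the files do not tie its probe sets to these forms. For Ids 1 of 3 bright probe sets was lower, at -0.25, and the other 2 had changes of -0.09 and -0.07. Averaging all probe sets of a gene, bright and dim, ended the calls of Ids, Arsb, Idua and Scpep1 and put Neu1 below the filter. Arsb and Idua had 1 bright probe set each, whereas both probe sets of Scpep1 were bright, at -0.28 and -0.10, and the second did not pass. For Ppt1 the probe set that represented the gene had an adjusted p of 0.0557 in this fit, the next in brightness fell by 0.33 on the log2 scale and the last had a change of 0.00. Both probe sets of Tpp1 gave -0.68, and both bright probe sets of Psap lay between -0.96 and -0.88.

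**Figure D4:**
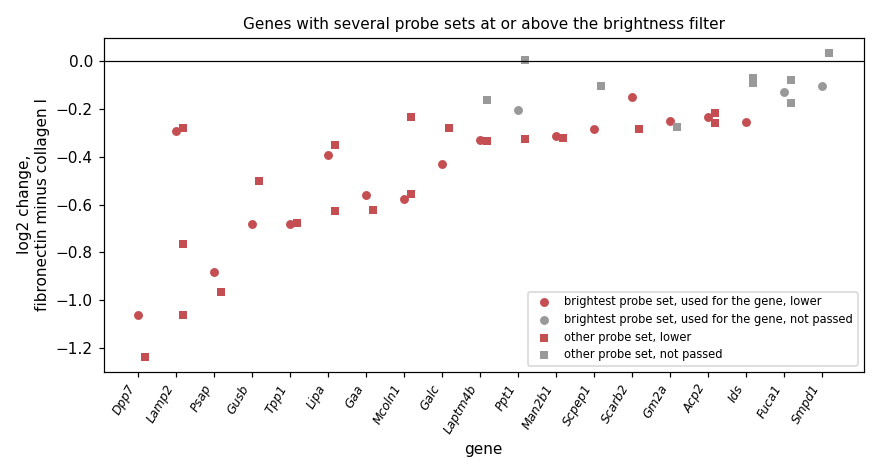
Log2 change (fibronectin minus collagen I, vertical axis) of every bright probe set of the 19 lysosomal genes (horizontal axis) with at least 2 of them. Circles are the probe sets that represent the gene, squares the others, red marks adjusted p under 0.05 and grey those that did not pass. Red points of a gene all lie below 0, and the 4 points of Lamp2 spread from -1.06 to -0.28.

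Other lysosomal genes are set here beside all genes tested, of which 20.2% fell and 19.9% rose, with a median log2 change of 0.00. Of 18 tested further hydrolases and cofactors 9 fell (50%) and 1 rose (5.56%), with a median log2 change of -0.20. Smpdl3a, a phosphodiesterase related to sphingomyelinase, fell 2.2-fold, Ctsa, the protective protein that stabilises Glb1 and Neu1, fell 1.85-fold, Fuca2 fell 1.78-fold, and the progranulin gene Grn fell 1.53-fold, with adjusted p between 2.04e-05 and 0.000141. Over averaged probe sets the log2 change of Ctsa was -0.54 in place of -0.89 and that of Fuca2 -0.32 in place of -0.83. That of Grn was -0.65 in place of -0.61, and all of these still passed. Ggh, which trims folates, was the gene that rose, 1.18-fold (adjusted p = 0.00363). Of 30 tested further membrane proteins 20 fell (66.7%) and 0 rose, with a median of -0.24. Gpnmb, a glycoprotein known as a target of Mitf, had 6.93, 7.04 and 7.02 on fibronectin, against 8.57, 8.73 and 8.57 on collagen, and fell 3.08-fold (adjusted p = 8.87e-06), more than any gene of the main list. The cholesterol exporter Npc1 fell 2.01-fold, Ostm1, the partner of a lysosomal chloride exchanger, 1.81-fold and Glmp 1.7-fold. Of 8 tested cathepsins 6 fell (75%) and 0 rose, with a median of -0.37 and the smallest p for Ctsb (1.62-fold) and Ctsd (1.66-fold). The call of Ctsl was lost over its averaged probe sets (log2 change -0.15 in place of -0.31, adjusted p = 0.105).

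In the machinery that sorts and activates lysosomal enzymes, the median log2 change of the 21 tested genes was -0.10, with 8 falls (38.1%, against 20.2% of all genes tested) and 1 rise (4.76%, against 19.9%). Igf2r, the large mannose phosphate receptor, had 6.41, 6.53 and 6.59 on fibronectin, against 7.43, 7.31 and 7.40 on collagen, and fell 1.83-fold (adjusted p = 5.7e-05). The retromer subunits Vps26a and Vps35, which return sorting receptors to the Golgi, fell 1.28-fold and 1.18-fold, and the adaptor subunit Ap3b1 fell 1.17-fold. Gnptab, a subunit of the transferase that makes the mannose phosphate mark, had 5.49, 5.48 and 5.59 on fibronectin, against 5.39, 5.26 and 5.38 on collagen. It rose 1.13-fold (adjusted p = 0.0414), a call that was lost without any 1 sample other than collagen replicate 1 (adjusted p between 0.0585 and 0.133). Among the MiT/TFE factors Mitf had 5.03, 5.23 and 5.35 on fibronectin, against 6.04, 5.84 and 5.80 on collagen, and fell 1.62-fold (adjusted p = 0.00103). Over its averaged probe sets the log2 change of Mitf was -0.38 in place of -0.69 and still passed (adjusted p = 0.0133). Tfe3 fell 1.18-fold (adjusted p = 0.0142), a call lost without fibronectin replicate 3 (0.0522), Tfeb had a log2 change of -0.15 that did not pass (adjusted p = 0.3), and Tfec lay below the filter.

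**Figure D5:**
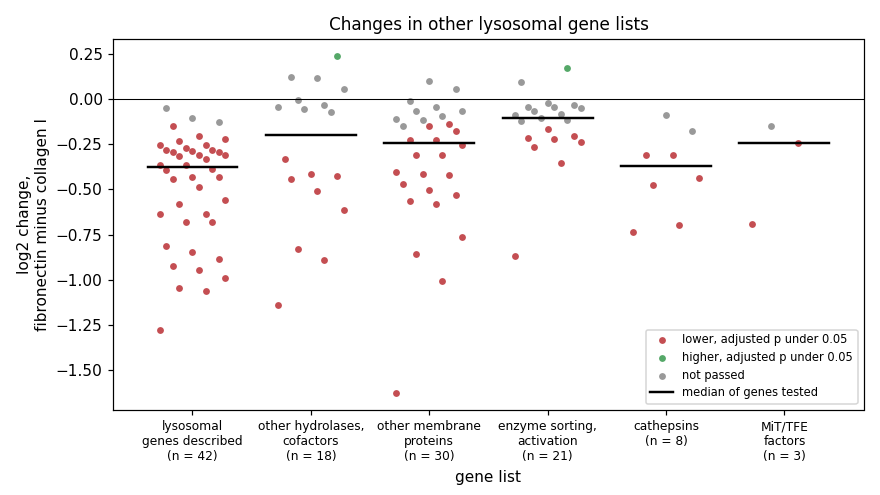
Log2 change (fibronectin minus collagen I, vertical axis) of each tested gene in the main list of lysosomal genes and in 5 other lists (horizontal axis, n is the number tested). Black bars are medians, from -0.38 for the main list to -0.10 for enzyme sorting and activation, and the 2 green points are Ggh and Gnptab.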

How the data were processed

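The log2 signals of 45101 probe sets in 6 samples were used as deposited by the authors. Per the submitters' processing notes the tools were Affymetrix Expression Console and RMA, a method that subtracts background, gives all arrays the same distribution and combines the probes of a probe set into a log2 signal. Neither versions nor scan dates are given in the sources used here. Batches could therefore not be tested. RMA compresses the changes of dim probe sets, and quantile normalisation removes a change shared by most genes. Array signals give no count of molecules, and the 3 samples per group limit the precision, with a median SE of 0.06 over all genes tested.

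Probe sets were named from the platform annotation, with symbols updated through a RefSeq gene reference of assembly GRCm38.p6 for 18033 of 18195 genes. Of the probe sets 34958 had 1 gene, 932 several and 9211 none, and the last 2 kinds were not named. A gene was represented by its brightest probe set on average and was tested at a mean of 2.33 (the median of all probe sets) or more, which left 10942 genes. The fit was limma 3.58.1 in R 4.3.3 (lmFit and eBayes, fibronectin minus collagen, two-sided, no covariates, Benjamini-Hochberg over all genes tested, threshold 0.05). An exact permutation test of 3 against 3 samples cannot go below 0.1 and was not run. Figures used Python 3.11.15 and matplotlib 3.10.9.

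The genes, the lists beside them and the tests were chosen with earlier results of these data known, so no list was tested and gene counts stand beside those of all genes tested. All listed genes are named. Values of every sample are given for up to 4 genes of a role past the threshold, and from other lists up to 4 genes are named, both by smallest unadjusted p, with any in the rarer direction. Alternatives were no brightness filter or a filter at the 75th percentile, repeated quantile normalisation, samples centred on their medians, averaged probe sets, no probe sets ending in _x_at, array weights, robust variance with an intensity trend, a block for the replicate number, a threshold of 0.01 and leaving out each sample. On simulated data for this comparison with 10942 genes, 200 of them changed, the fit recovered 80% of genes changed 1.3-fold, 82% at 1.5-fold, 98% at 2-fold and 100% at 3-fold, with 6 false calls among 186. The simulated noise was independent between genes and far fewer genes changed than the 40.1% that passed in the data. These rates therefore need not hold for the data.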

Additional observations from a re-analysis of the deposited data

How the results depend on the processing

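Across the alternatives run, between 32 and 41 of the tested lysosomal genes were lower on fibronectin and 0 were higher, and the median log2 change kept its sign. Of the 39 genes called, 36 were called without the brightness filter, 31 with the 75th percentile filter (which tested 34 genes of the list), 39 after repeated quantile normalisation, without _x_at probe sets, with an intensity trend and with array weights, 36 with samples centred, 34 with averaged probe sets and 33 at a threshold of 0.01. The share of all genes tested that were lower also moved with the setting, from 20.2% in the main fit. It was 9.98% without the filter, 23.3% with the 75th percentile filter and 20.3% after repeated quantile normalisation. It was 20.1% without _x_at probe sets, 21.7% with an intensity trend and 21.4% with array weights. With samples centred it was 15%, with averaged probe sets 18.7% and at the threshold of 0.01 12.8%. Without the filter Pla2g15, Ppt1 and Scarb2 were lost. Fuca1 passed after repeated quantile normalisation (adjusted p = 0.0479), with the 75th percentile filter (0.0365) and with an intensity trend (0.0455). Leaving out 1 sample gave 35 to 38 genes, where 16.3% to 18.9% of all genes tested were lower. The fit with the replicate number as a block gave 37, losing Ppt1 and Scarb2, where 19.7% of all genes tested were lower. The numbers are not stated to mark shared animals or days, and deviations of same-numbered samples correlated at 0.101, -0.009 and 0.078, so the block was not used, and not every sample correlated best with its own number. In the other lists, enzyme sorting and activation had 0 higher genes without the filter, with averaged probe sets and at the threshold of 0.01, and 2 with samples centred, and 0 to 1 when a sample was left out. Further hydrolases had 5 lower genes with the 75th percentile filter, 3 higher with samples centred and 2 higher with averaged probe sets. Further membrane proteins had 20 lower genes in the main fit, 16 without the filter and 15 with the 75th percentile filter. They had 17 with samples centred and 18 with averaged probe sets and with the block. Cathepsins had 4 lower genes with the 75th percentile filter and with averaged probe sets, and 7 with array weights and with the block, in place of 6. The MiT/TFE factors had 1 lower at the threshold of 0.01 and 1 to 2 when a sample was left out. Fewer genes tested, a stricter threshold or fewer samples are built into some of these settings; for the others the cause was not tested. At the threshold of 0.01 all genes tested gave 1398 lower and 1169 higher, against 2211 and 2173 at 0.05. Signals near the filter, as for Sgsh, Neu1 and Cd68, limit what can be said of the size of a change.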
